A study of Mus musculus with 2 samples.

Results

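The genes described here are 30 genes by which a cell makes, senses, takes up, stores and exports cholesterol. They were listed by name, and each was found through the gene name printed beside its array probes. The 30 genes had 42 probes, and every probe was well above background on each array, so that no member was lost to a filter, among 19393 measured genes in all. The list was split by role into early synthesis (8 genes), late synthesis (10), sterol sensing (5), uptake, transport and storage (3), and the liver X receptors (LXR) with the efflux pumps (4).

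RNA came from the skin of newborn C57BL/6N mice on postnatal day 0, either Pla2g4e-/- (knockout) or Pla2g4e+/+ (wild type). Pla2g4e encodes a cytosolic phospholipase A2, and the labels do not say which part of it was removed. Each group was 1 Agilent array of Cy3-labelled RNA pooled in equal amounts from 5 animals, so the spread between animals is not in the data. Every difference is that of 1 pool against another, with no replicate check, and statistical tests between the groups were not possible.

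Cholesterol is built from acetyl-CoA, first through mevalonate and the isoprenoids to squalene, then through lanosterol to the finished sterol. When sterol is short, SCAP escorts the membrane-bound factors SREBP to the Golgi, where they are cut free to switch on the genes of synthesis and uptake. The INSIG proteins hold SCAP back when sterol is plentiful. Sterol derivatives activate LXR, which switches on the pumps that export cholesterol. In skin, cholesterol is, beside ceramides and free fatty acids, a main lipid of the barrier of the outermost layer.

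A value here is the spot signal after background subtraction by the scanner software. Signals are given unscaled, and a difference is log2 of the signal in the knockout pool minus that in the wild-type pool after each array was scaled to the 75th percentile of its probes. The scaling adds 0.09 to the log2 ratio of the unscaled signals. The scanner software put the error of a member's difference between 0.20 and 0.21 log2, nearly all of it a preset 10% per spot. Among probes printed 10 times per array, the differences of the prints had an SD of 0.035 log2 at the median. Both errors describe spots, not animals, and signals of different probes are not compared with each other.

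Median signals were 241 in the knockout pool and 249 in the wild-type pool, and 80.8% of the probes in the knockout pool and 78.0% in the wild-type pool were well above background. The main probe of Pla2g4e read 320 in the knockout pool and 662 in the wild-type pool, a difference of -0.96. Another probe was dim, at 11.7 in the knockout pool, where it was well above background, and 10.6 in the wild-type pool, where it was not. Whether either lies in the removed part is unknown. Markers of keratinocytes and fibroblasts were measured in both pools (values at the end). The pools were of unlike sex make-up. Of 4 Y-linked genes, 0 were well above background in the knockout pool and 4 in the wild-type pool. Xist was well above background in each pool, at 2889 in the knockout pool and 796 in the wild-type pool (1.95). The wild-type pool thus read Y-linked genes and Xist together, and the number of males in it is unknown. Genotype, sex and place on the slide cannot be told apart, and in whole skin fewer cells of a type and less RNA per cell cannot be told apart either.

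Most genes of cholesterol synthesis were lower in the knockout pool, and the LXR and efflux genes were higher. Of the 18 synthesis genes, 15 lay below 0, where 48.1% of all measured genes did, with a median difference of -0.47 against 0.01 over all measured genes. The 4 LXR and efflux genes all lay above 0, with a median of 0.59. The synthesis median was thus 1.06 log2 below that of LXR and efflux. Over all 30 members the median was -0.29, and 22 lay below 0. At a size of 1.5-fold, 6 members were lower, against 4.5% of all measured genes, and 2 were higher, against 6.74%. With the arrays scaled to their medians the counts were 9 and 0, since several members lie close to that size. The share of all measured genes was not counted under that scaling. Of the 24 members brighter than the median measured gene, 3 were lower and 2 higher by this size, where 2.43% and 4.1% of such genes were, and their median was -0.12.

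**Figure D1:**
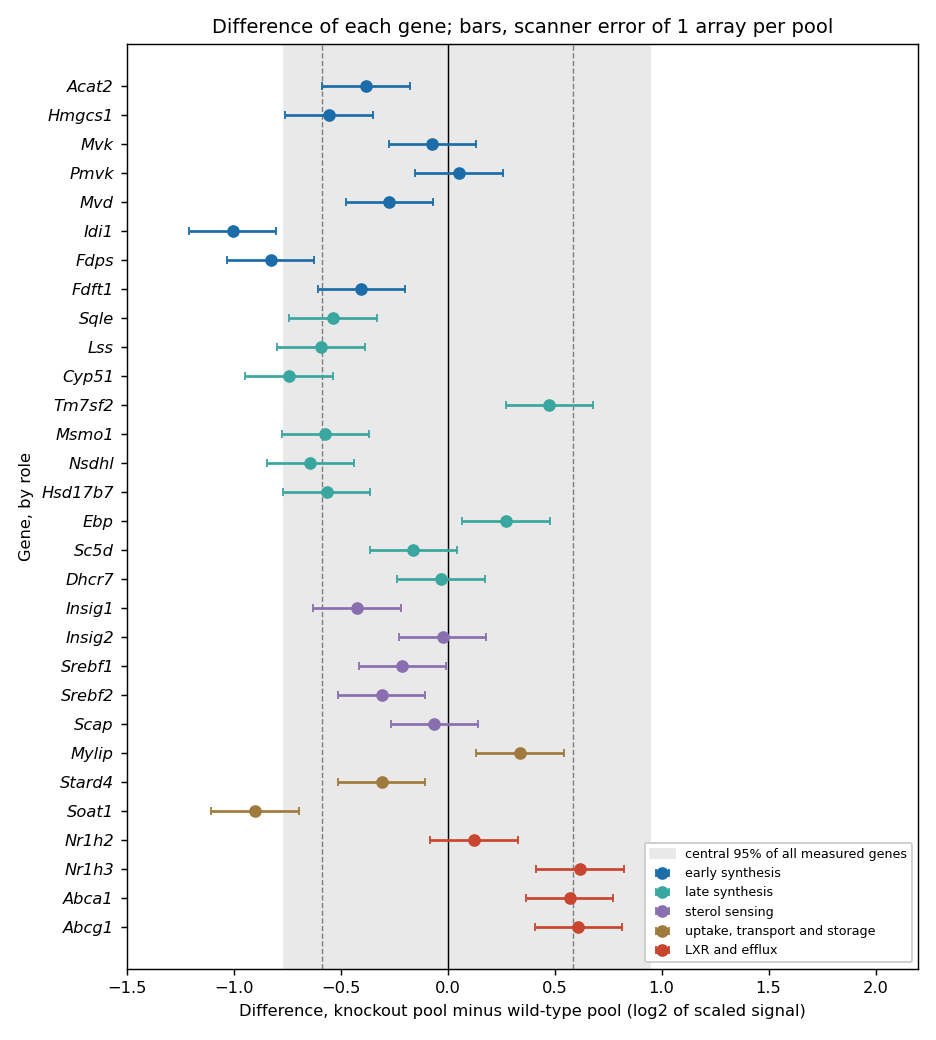
Difference of each of the 30 genes between the knockout and the wild-type pool (horizontal axis, log2 of scaled signal), with genes down the page by role. Points are single probes, bars are the scanner error of 0.20 to 0.21 log2, dashed lines mark 1.5-fold and the shaded band holds the central 95% of all measured genes. Most synthesis genes lie left of 0, with Pmvk, Tm7sf2 and Ebp to the right, and the 4 LXR and efflux genes lie right of it.

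Early synthesis, from acetyl-CoA to squalene, held the member with the greatest difference. Idi1, the isomerase that interconverts the activated isoprene units, read 6328 in the knockout pool and 13518 in the wild-type pool. Its difference of -1.0 was 2.01-fold, the only one of the 30 past 2-fold, and 277 of the 19393 measured genes lay as low or lower. Fdps, which joins isoprene units into farnesyl diphosphate, read 11440 in the knockout pool and 21615 in the wild-type pool, a difference of -0.83, from a probe that the files place on another chromosome than the gene. The knockout pool read lower for each, and both genes lay below the central 95% of all measured genes, which ran from -0.76 to 0.95.

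The enzymes at the entry and the end of this stretch were lower by less. Hmgcs1, which condenses acetyl groups into the precursor of mevalonate, read 25156 in the knockout pool and 39368 in the wild-type pool (-0.55). Acat2, the thiolase of the step before it, read 283 in the knockout pool and 393 in the wild-type pool (-0.38). Fdft1, the squalene synthase that commits farnesyl diphosphate to sterols, read 2984 in the knockout pool and 4206 in the wild-type pool (-0.40). The files place its probe far from the gene's dimmer one. Each of these 3 genes was lower in the knockout pool, by 1.30-fold to 1.47-fold.

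The kinases and the decarboxylase in the middle of the mevalonate stretch differed little. Mvd, the decarboxylase, read 1289 in the knockout pool and 1659 in the wild-type pool (-0.27). Mvk, the mevalonate kinase, read 16141 in the knockout pool and 18066 in the wild-type pool (-0.07). Pmvk, the kinase after it, read 18352 in the knockout pool and 18844 in the wild-type pool, which became 0.05 after scaling and was the only early difference above 0. Those of Mvk and Pmvk were smaller than the scanner error. The median of the 8 early genes was -0.39, and 4 of them were lower by more than the 95% interval of the scanner error, against 8.17% of all measured genes.

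Late synthesis, from squalene to cholesterol, held 6 genes with differences between -0.74 and -0.54, next to each other at the start of the stretch but for Tm7sf2. Sqle, the squalene epoxidase, read 14164 in the knockout pool and 21871 in the wild-type pool (-0.54). Lss, which folds the epoxide into lanosterol, read 741 in the knockout pool and 1190 in the wild-type pool (-0.59). Cyp51, the cytochrome that starts to strip lanosterol of its methyl groups, read 850 in the knockout pool and 1513 in the wild-type pool (-0.74), the lowest of the late genes. These first 3 enzymes of the late stretch were all lower in the knockout pool.

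The complex that removes the remaining methyl groups was lower as well. Msmo1, its oxygenase, read 16693 in the knockout pool and 26432 in the wild-type pool (-0.57). Nsdhl, its dehydrogenase, read 530 in the knockout pool and 881 in the wild-type pool (-0.64). Hsd17b7, its ketone reductase, read 2133 in the knockout pool and 3361 in the wild-type pool (-0.56). Each of the 3 enzymes read between 64.1% and 67.6% of the wild-type level in the knockout pool after scaling. Nsdhl lies on the X chromosome, and its value therefore also compares pools of unlike sex make-up.

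The other late genes differed less or the other way. Tm7sf2, a sterol reductase acting after Cyp51, read 6273 in the knockout pool and 4808 in the wild-type pool (0.48). Ebp, the isomerase that moves the ring double bond, read 26407 in the knockout pool and 23298 in the wild-type pool (0.27) and is also X-linked. Those 2 were the only late genes with a higher value in the knockout pool. Sc5d, a desaturase, read 5288 in the knockout pool and 6296 in the wild-type pool (-0.16), and Dhcr7, a reductase of the final steps, read 1309 in the knockout pool and 1424 in the wild-type pool (-0.03). The enzymes of the last steps thus lay within 0.27 of 0 on the log2 scale, while all but Tm7sf2 of the late enzymes before them were lower in the knockout pool.

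The median of the 10 late genes was -0.55, and the early median lay 0.16 log2 above it. Among members brighter than the median measured gene the late median was -0.35 and the order was turned, at -0.056. At least 1.5-fold lower were 2 early genes, Idi1 and Fdps, and 3 late genes, Cyp51, Nsdhl and Lss. Msmo1, Hsd17b7, Hmgcs1 and Sqle lay just short of it, between 1.45-fold and 1.49-fold, while Lss lay just past it at 1.51-fold. Higher by that size were 0 of the 18.

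**Figure D2:**
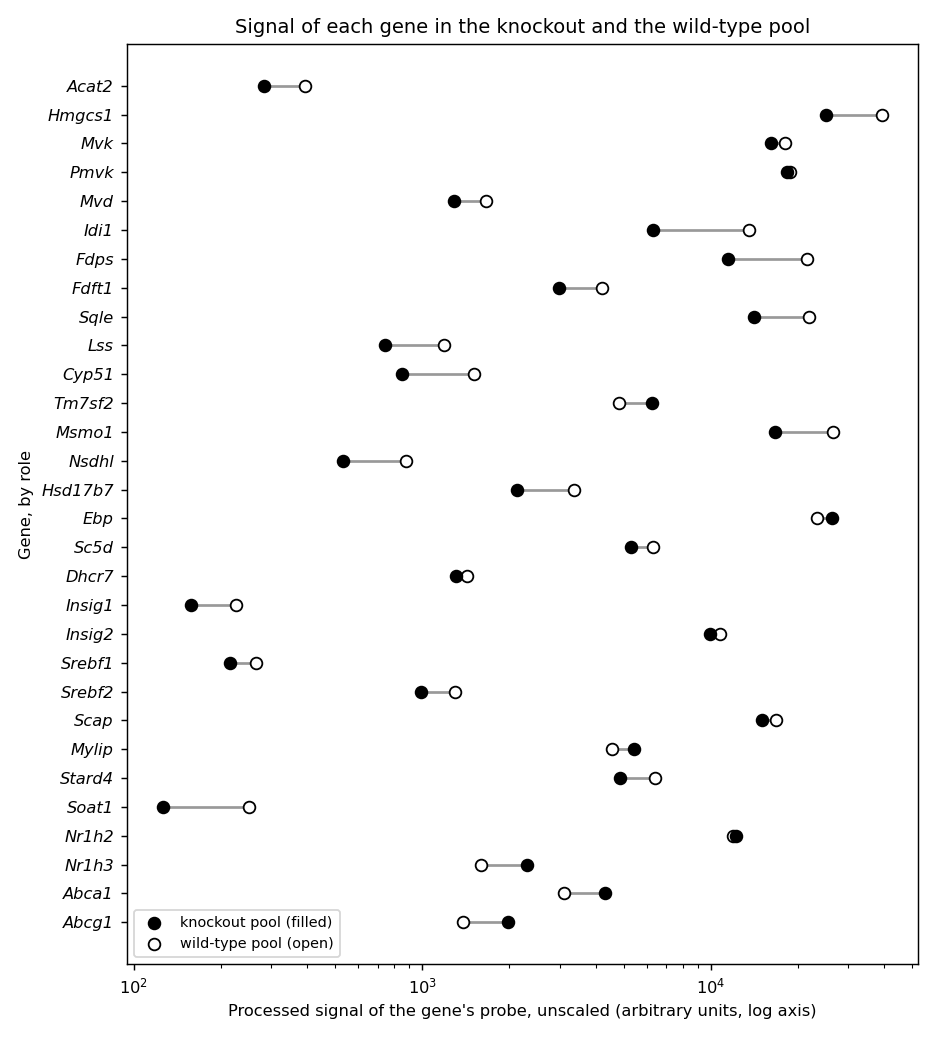
Unscaled processed signal (horizontal log axis, arbitrary units) of each gene's probe in the knockout pool (filled) and the wild-type pool (open), with genes down the page by role and a grey line joining the pools. Within each row, filled points lie left of open ones from Sqle to Hsd17b7 except at Tm7sf2, and right of them for Nr1h3, Abca1 and Abcg1. Rows come from different probes and are not to be set against each other.

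The sterol-sensing genes were all below 0 by their brighter probes, none of them by 1.5-fold. Insig1, which retains SCAP and is itself a well-known SREBP target, read 158 in the knockout pool and 226 in the wild-type pool (-0.43). Srebf2, which encodes the SREBP most tied to cholesterol synthesis, read 986 in the knockout pool and 1301 in the wild-type pool (-0.31), but its dimmer probe gave 0.13. Srebf1, whose product serves fatty acid synthesis above all and is an LXR target, read 216 in the knockout pool and 266 in the wild-type pool (-0.21). Insig1 was the only one of these whose difference passed the 95% scanner interval, and with normexp background correction, which draws low signals together, it was -0.27 and fell short of it.

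Scap and Insig2, the other partners of this switch, differed by less than the scanner error. Scap read 15090 in the knockout pool and 16779 in the wild-type pool (-0.06). Insig2, which does the work of Insig1 but is not known for the same dependence on SREBP, read 9939 in the knockout pool and 10763 in the wild-type pool (-0.02). The median of the 5 genes was -0.21, but -0.13 with normexp, -0.088 with the mean of each gene's probes and -0.062 among genes brighter than the median measured gene.

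The LXR and efflux genes were the group that was higher in the knockout pool. Abca1, which loads cholesterol onto poor lipoprotein acceptors, read 4310 in the knockout pool and 3093 in the wild-type pool (0.57). Abcg1, which passes cholesterol to mature lipoproteins, read 1988 in the knockout pool and 1387 in the wild-type pool (0.61). Nr1h3, which encodes LXR alpha, read 2301 in the knockout pool and 1596 in the wild-type pool (0.62). These 3 genes lay close together, at 1.48-fold to 1.54-fold, and each passed the 95% scanner interval, as 11.5% of all measured genes did on the higher side. Abcg1 and Nr1h3 were past 1.5-fold and Abca1 just short of it. Nr1h2, which encodes LXR beta, read 12215 in the knockout pool and 11946 in the wild-type pool (0.12), less than the scanner error.

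Macrophages are known for high levels of these pumps. The differences of 5 of 7 macrophage markers lay above 0, as did those of 10056 of the 19393 measured genes. The summed scaled signal of the macrophage markers, in units of each array's 75th percentile, was 19.4 in the knockout pool and 18.1 in the wild-type pool, a ratio of 1.07. Cd163 (1.02) was the only macrophage marker at least 1.5-fold higher, and the other 6 ran from Lyz2 (-0.29) to Mrc1 (0.50). The Cd163 probe is dim, at 107 in the knockout pool and 56.3 in the wild-type pool. Endothelial markers had a higher ratio of sums, 1.29, and a median of 0.73. The part of macrophages or of any other cell type in the values of Abca1, Abcg1 and Nr1h3 was not tested.

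The genes of uptake, transport and storage differed in direction. Mylip, an LXR target whose product marks lipoprotein receptors for breakdown, read 5399 in the knockout pool and 4549 in the wild-type pool (0.34). Stard4, a carrier that shuttles cholesterol through the cytosol, read 4853 in the knockout pool and 6400 in the wild-type pool (-0.31). Soat1, which esterifies cholesterol for storage, read 126 in the knockout pool and 250 in the wild-type pool (-0.90). Soat1 was 1.87-fold lower, next to Idi1 the greatest difference among the 30. Its probe is dim, and with normexp the difference was -0.58, just short of 1.5-fold.

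**Figure D3:**
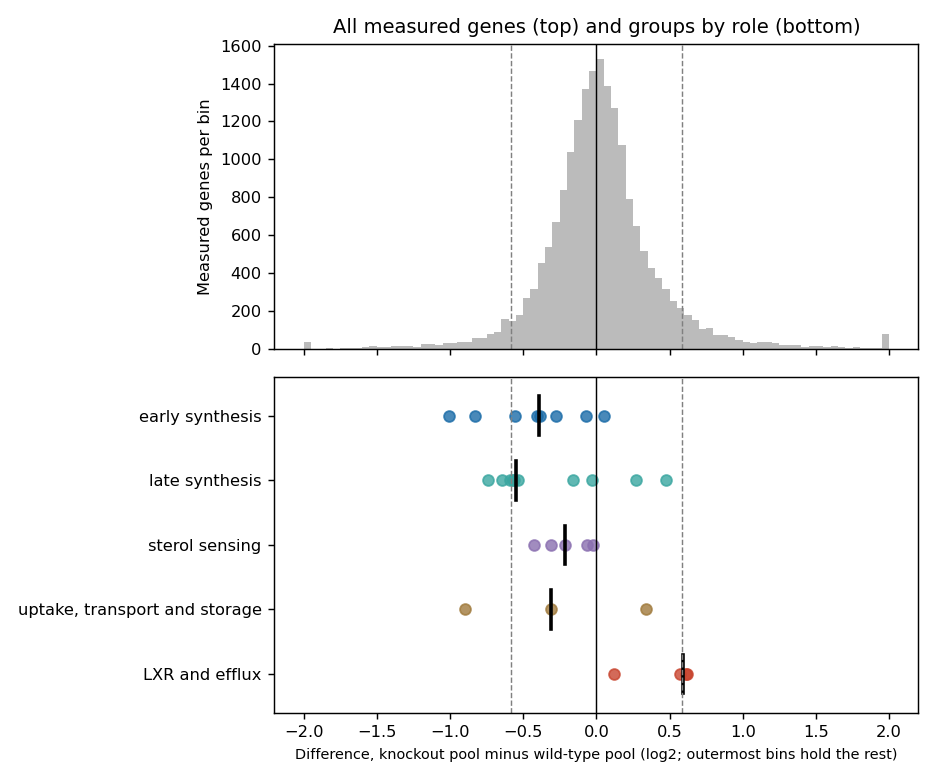
Top, histogram of the difference between the knockout and the wild-type pool for all 19393 measured genes (genes per bin). Bottom, the members of each role as points with the median as a black bar, on the same log2 axis, with dashed lines at 1.5-fold. Early synthesis (-0.39), late synthesis (-0.55), sterol sensing (-0.21) and uptake, transport and storage (-0.31) have medians below 0. The median of LXR and efflux (0.59) lies above it.

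Of the 12 members with a pair of probes, 10 had differences of the same sign from each, and the median gap was 0.11 log2. Hsd17b7 had -0.56 and -0.57, and Nr1h3 had 0.62 and 0.60 from probes 95 bases apart. For these genes separate probes gave nearly the same value, but they read the same RNA on the same arrays. Nsdhl had -0.64 from its brighter probe and -0.48 from the other, and Tm7sf2 had 0.48 and 0.33. The higher value of Tm7sf2 among lower neighbours was thus seen with each of its probes.

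The 2 genes whose probes differed in sign were Pmvk, at 0.05 and -0.07, and Srebf2, at -0.31 and 0.13. For Srebf2 the direction therefore depends on the probe. The Srebf2 probes lie 4697 bases apart on mm9 chromosome 15, and their sequences are shown because they gave unlike values. The upper is the brighter probe, which stands for the gene here, and the lower read 280 in the knockout pool and 272 in the wild-type pool.
Srebf2 probe A_51_P377508, mm9 chr15:82034765-82034824, plus strand: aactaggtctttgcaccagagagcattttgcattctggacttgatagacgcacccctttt
Srebf2 probe A_55_P2000487, mm9 chr15:82030068-82030127, plus strand: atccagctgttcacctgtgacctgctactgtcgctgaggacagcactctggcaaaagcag

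A few probes carry positions that do not match their gene. The single probe of Fdps is placed on mm9 chromosome 10, whereas RefSeq has the gene on chromosome 3, and its sequence is given for that reason. The probes of Fdft1 lie 44399663 bases apart on mm9 chromosome 14 and on opposite strands, so they cannot both lie in the gene. The brighter one, on the plus strand, gave the -0.40 used here, and whether it lies in the gene was not checked. The dim one read 22.5 in the knockout pool and 29.9 in the wild-type pool (-0.32). The probes of Hmgcs1 lie on an unplaced part of chromosome 13, and the dim one gave -0.14. Where near-identical copies of these genes exist, signal of one copy cannot be told from that of another.
Fdps probe A_55_P1966804, mm9 chr10:93242421-93242480, plus strand: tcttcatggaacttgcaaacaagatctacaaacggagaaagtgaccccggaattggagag

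**Figure D4:**
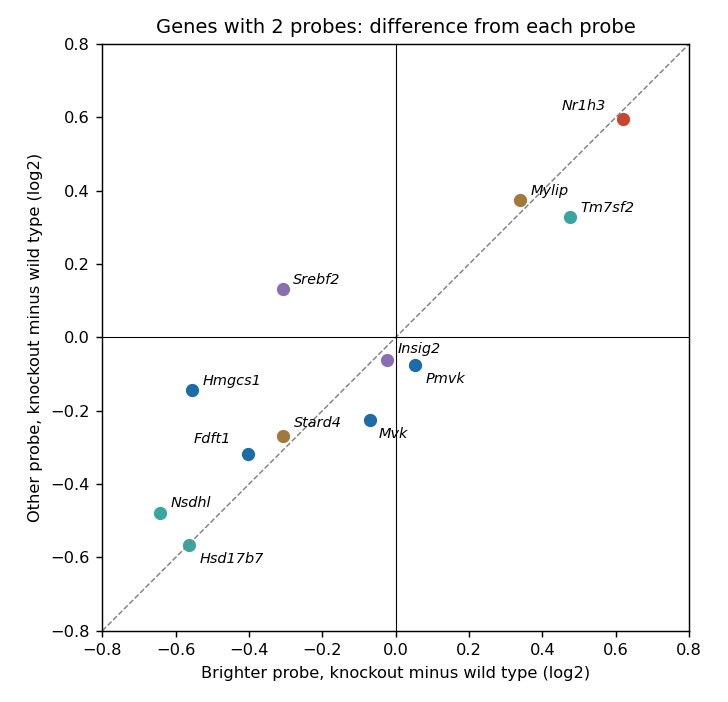
Difference between the knockout and the wild-type pool from the brighter probe (horizontal) and from the other probe (vertical) of the 12 genes with a pair of probes, both in log2, coloured by role. The dashed line marks equal values. Points lie near the line except for Srebf2 (-0.31 and 0.13) and Hmgcs1 (-0.55 and -0.14), whose other probe is dim.

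SREBP factors act with partners, chief among them NF-Y, which binds the CCAAT box, so the promoters of the members were read for such letters. RefSeq windows on GRCm38.p6, from 250 bases before to 50 after a transcript start, were held for 25 of the 30 genes in 34 windows. Fdps, Fdft1, Sqle, Abcg1 and Stard4 were not among them. The letters CCAAT, on either strand, occurred in 14 of 15 synthesis genes and in 0 of 3 LXR and efflux genes. Over all 27025 genes with a window, 41.1% held them.

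Other letters searched on both strands were TCACNCCAC, a core of the sterol regulatory element (SRE), CACGTG, an E-box, and GGGCGG, a GC box. The SRE letters occurred in 1 member, Hmgcs1, against 1.44% of all genes, and variants of these letters were not searched. The E-box occurred in 6 of 25 members, against 8.09% of all genes. The GC box occurred in 22, against 38.2%. A repeat of nuclear receptor half-sites with 4 bases between them (DR4), allowing set variant letters, occurred in 0 members and in 0.27% of all genes. The windows of Abca1 and a window of Srebf1 hold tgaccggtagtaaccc and tgaccgccagtaaccc, left out only by the last letter of tgaccg. The count of 0 therefore depends on the letters allowed and does not show that the windows lack such repeats. Matches of different motifs overlapped in 0 of the member windows. A match is a run of letters and not a bound site, and windows this short leave out distant elements.

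The CCAAT letters did not follow the direction of the difference throughout. Of the 20 members with them, 16 lay below 0, and of the 5 without, 2 did, where 48.1% of all measured genes did. The split largely repeats that by role, since 14 of the 20 are synthesis genes and 3 of the 5 are LXR and efflux genes. Tm7sf2, Ebp and Mylip, which were higher in the knockout pool, hold 1, 2 and 3 CCAAT boxes, and Acat2, which was lower, holds 0. The windows of 5 genes are printed as examples of each kind, picked after their values were seen. Idi1 and Cyp51 have 2 and 1 CCAAT boxes, Hmgcs1 has 4 and the only SRE letters, and Abca1 and Nr1h3 have 0. Capitals mark CCAAT or its reverse complement, and in Hmgcs1 also the SRE letters, which start 137 bases before the transcript start. For Nr1h3, which has a pair of overlapping windows, the window of the start farther downstream is shown.
Idi1 promoter, GRCm38.p6 chr13:8885356-8885655, plus strand: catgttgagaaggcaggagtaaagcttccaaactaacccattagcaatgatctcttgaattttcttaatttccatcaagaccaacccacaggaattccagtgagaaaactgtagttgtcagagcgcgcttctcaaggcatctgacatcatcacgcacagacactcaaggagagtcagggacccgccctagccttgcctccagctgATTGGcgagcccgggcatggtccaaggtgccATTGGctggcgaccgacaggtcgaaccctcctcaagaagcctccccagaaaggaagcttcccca
Cyp51 promoter, GRCm38.p6 chr5:4104648-4104947, minus strand: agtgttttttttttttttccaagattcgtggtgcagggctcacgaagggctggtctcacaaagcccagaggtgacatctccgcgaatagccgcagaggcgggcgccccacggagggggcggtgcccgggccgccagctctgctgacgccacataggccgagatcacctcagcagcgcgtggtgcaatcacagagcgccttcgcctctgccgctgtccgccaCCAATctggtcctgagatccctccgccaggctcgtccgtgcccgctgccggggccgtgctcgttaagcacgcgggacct
Hmgcs1 promoter, GRCm38.p6 chr13:119690101-119690400, plus strand: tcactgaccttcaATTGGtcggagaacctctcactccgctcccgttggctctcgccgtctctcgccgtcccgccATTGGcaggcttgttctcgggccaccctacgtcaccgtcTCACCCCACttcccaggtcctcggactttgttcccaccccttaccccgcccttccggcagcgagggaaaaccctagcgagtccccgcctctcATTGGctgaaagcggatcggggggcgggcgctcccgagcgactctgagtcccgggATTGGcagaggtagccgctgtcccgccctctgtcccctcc
Abca1 promoter, GRCm38.p6 chr4:53159846-53160145, minus strand: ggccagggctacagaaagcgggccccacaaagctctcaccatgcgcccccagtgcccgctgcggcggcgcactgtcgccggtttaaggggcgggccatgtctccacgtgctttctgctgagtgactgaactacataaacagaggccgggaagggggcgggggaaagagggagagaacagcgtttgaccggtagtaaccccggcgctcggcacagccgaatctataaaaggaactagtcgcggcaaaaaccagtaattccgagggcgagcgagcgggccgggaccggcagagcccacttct
Nr1h3 promoter, GRCm38.p6 chr2:91194986-91195285, minus strand: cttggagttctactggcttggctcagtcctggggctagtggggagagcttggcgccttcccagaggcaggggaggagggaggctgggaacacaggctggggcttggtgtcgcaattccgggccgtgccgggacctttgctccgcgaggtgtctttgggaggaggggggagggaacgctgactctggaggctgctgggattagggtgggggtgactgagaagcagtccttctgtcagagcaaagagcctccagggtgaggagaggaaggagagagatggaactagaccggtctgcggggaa

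Among other genes of the pathway, listed apart from the members, the further SREBP targets came closest to the synthesis genes. This list holds mostly genes of fatty acid synthesis. Its median was -0.38 over 15 genes, with 4 at least 1.5-fold lower and 1 higher. The sterol-regulated membrane protein gene Tmem97 (-0.83), the fatty acid synthase gene Fasn (-0.81), the elongase gene Elovl6 (-0.75) and the desaturase gene Scd1 (-0.68) were the lower ones. Fasn read 397 in the knockout pool and 742 in the wild-type pool. Lpin1, which makes diacylglycerol and also acts as a coregulator in the nucleus, was the higher one at 1.01.

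The machinery that moves and cuts SREBP did not differ by 1.5-fold in any gene. Of 10 genes of SREBP processing and of sterol-regulated protein degradation, Nfyb, a subunit of NF-Y, was lowest (-0.38) and Mbtps1, the protease of the first cut, highest (0.20), with a median of -0.01. The isoprenoid branches, which draw on farnesyl diphosphate for ubiquinone, dolichol and protein prenylation, had a median of 0.07 over 8 genes. Of these, Pdss1, of ubiquinone synthesis, was lowest (-0.53) and Fntb, a farnesyltransferase subunit, highest (0.33). Neither list followed the trunk of the pathway from Idi1 to Fdft1.

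Other genes of sterol uptake and transport had a median of 0.14 over 13 genes, with 2 at least 1.5-fold lower and 0 higher. The lower ones were Tmem97, which is also in the list of SREBP targets, and the lipoprotein receptor gene Lrp8 (-0.69). Other LXR targets with further genes of efflux and sterol metabolism had a median of 0.08 over 13 genes. Ch25h, which makes an oxysterol, was the 1 gene at least 1.5-fold lower (-0.64) and 0 were higher. The LXR targets Pltp (-0.29), Lpcat3 (-0.26), Smpdl3a (-0.05) and Arl4c (0.19), picked after their values were seen, did not share the higher values of Abca1 and Abcg1. Sult2b1, which sulfates cholesterol in the epidermis and was also picked afterwards, stood at 0.08.

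**Figure D5:**
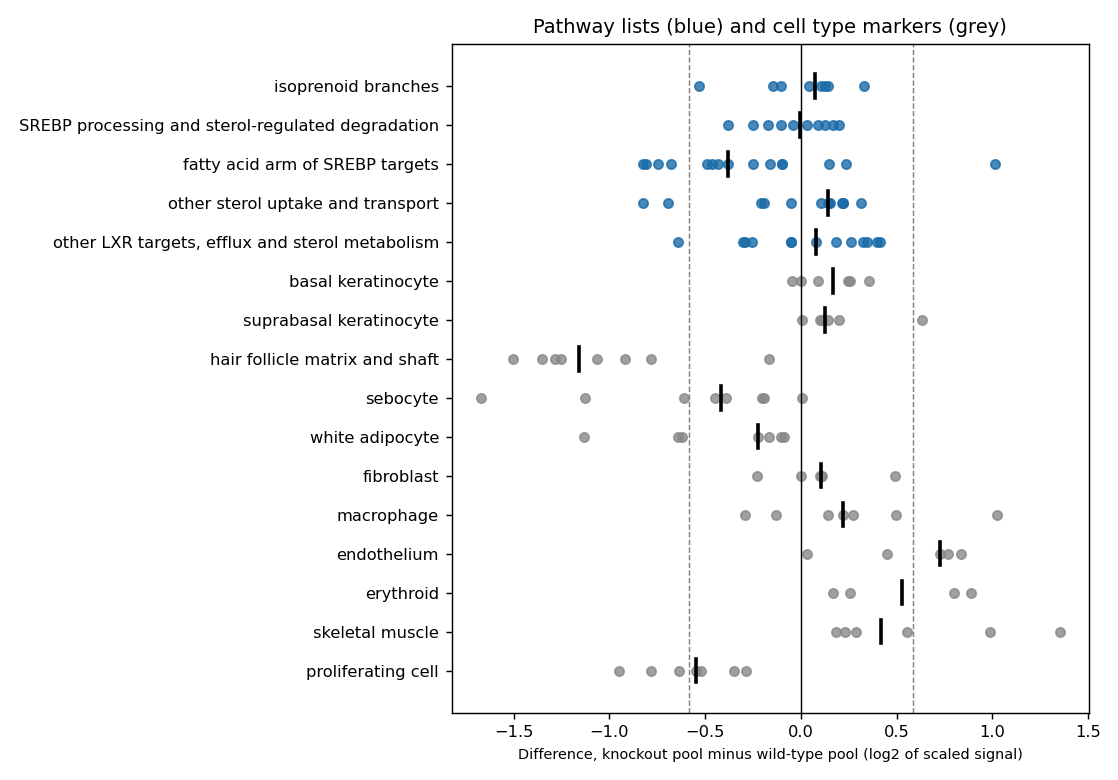
Difference between the knockout and the wild-type pool (horizontal axis, log2 of scaled signal) for the genes of 5 further pathway lists (blue) and 11 lists of cell type markers (grey), one row per list with the median as a black bar and dashed lines at 1.5-fold. Further SREBP targets have a median of -0.38. Hair follicle markers lie lowest among the lists (-1.16) and endothelial markers highest (0.73).

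Markers of several cell types that whole skin holds differed in the same comparison. Of 8 hair follicle markers, 7 were lower by 1.5-fold or more in the knockout pool, with a summed scaled signal of 17.9 in the knockout pool and 33.5 in the wild-type pool. They were Krt34 (-1.5), Krt86 (-1.35), Krt31 (-1.29), Krt33a (-1.25), Msx2 (-1.06), Krt85 (-0.92) and Hoxc13 (-0.78). Of 8 sebocyte markers, 3 were lower by that size, Fa2h (-1.67), Elovl3 (-1.13) and Awat2 (-0.61), and the list median was -0.42. Their sums were 63.0 in the knockout pool and 74.6 in the wild-type pool. A sum follows the brightest probes of its list, here Krt79 (-0.20). White adipocyte markers, of which Plin1 (-1.13), Adipoq (-0.64) and Retn (-0.62) were at least 1.5-fold lower, had a median of -0.22. They summed to 89.8 in the knockout pool and 104 in the wild-type pool, mostly from Fabp4 (-0.09) and Cfd (-0.17). Markers of proliferating cells summed to 28.9 in the knockout pool and 41.0 in the wild-type pool, with 3 of 7 at least 1.5-fold lower, Mcm2 (-0.95), Mcm5 (-0.79) and Mcm3 (-0.64). The part of each of these in the lower values of the synthesis genes was not tested.

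Markers of the epidermis itself differed little. The sums were 215 in the knockout pool and 208 in the wild-type pool for basal keratinocytes, with 0 of 6 markers past 1.5-fold, from Krt5 (-0.05) to Col17a1 (0.35). For suprabasal keratinocytes they were 365 in the knockout pool and 343 in the wild-type pool, with Ivl (0.63) the 1 of 6 at least 1.5-fold higher. Fibroblast markers had a ratio of sums of 1.06, and 0 of 6 were past 1.5-fold, from Lum (-0.23) to Pdgfra (0.49). Sums were higher by more in the knockout pool for endothelial markers, with Emcn (0.84), Tie1 (0.77) and Cdh5 (0.73) past 1.5-fold, at a ratio of 1.29. Skeletal muscle markers, with Tnni1 (1.36) and Myh3 (0.99), had a ratio of 1.28, and erythroid markers, with Rhag (0.89) and Ahsp (0.80), one of 1.27. Lep and Epb42 did not stand well above background in the knockout pool, whereas they did in the wild-type pool.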

How the data were processed

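The measurements were made on 2 Agilent 1-colour arrays of design 026655, 1 per pool of 5 animals, from 200 ng of total RNA labelled with Cy3, per the labels' protocols. The scanner software was Feature Extraction 11.5.1.1, per the submitters' processing notes. The deposited files give the intensity of each spot after background subtraction and detrending, per the file headers. The deposited value table holds a ratio per spot. Tested against the scanner files, it equals the processed intensity over a constant of each array, 2273 in the knockout pool and 2406 in the wild-type pool, so its scale is linear, it is not centred by gene, and its median was 0.0969 in the knockout pool and 0.0946 in the wild-type pool.

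Control spots and 226 outlier spots were left out, 0 spots were saturated, and 39429 probes remained. Log2 signals were scaled to the 75th percentile of each array. For each gene the probe with the highest mean signal was used, out of the probes well above background in the knockout and the wild-type pool. Members were found by the gene name in the files, and other probes by RefSeq accession (28288 probes), symbol (2204) or synonym (174), in a table of GRCm38.p6 used for names, chromosomes and promoters alone. For 1767 probes the file's own name was used, and 6954 probes had no name. Columns of unknown sample numbered 0.

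With 1 array per group no test was possible; a size of 1.5-fold and the 95% interval of the scanner error were used for counting, and the number of arrays limits the precision. The genes named were all members, Pla2g4e, Xist, and of each other list those past 1.5-fold, or else its highest and lowest. Named outside this rule were Krt79, Fabp4, Cfd, Lyz2, Mrc1, Lep and Epb42, and the genes marked as picked after their values were seen. Members and lists were chosen with earlier results of these data known. Alternatives covered scaling, quantile and loess normalization, normexp correction (offset 50, limma 3.58.1), the choice of probes, filters, flagged spots and the deposited table. The scaling was tested on simulated data. Some genes of the pathway are not analysed here. Computations used Python 3.11.15 and R 4.3.3.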

Additional observations from a re-analysis of the deposited data

How the results depend on the processing

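Under the alternatives that could be run, 29 of the 30 members kept their sign in every setting, and 291 of 294 member values moved by less than the scanner error. The exception in sign was Pmvk, at -0.01 with the mean of its probes. The 3 that moved further were Hmgcs1 (-0.35) and Srebf2 (-0.09) with the mean of probes, in which a dimmer probe counts equally, and Soat1 (-0.58) with normexp, which also moved Insig1 to -0.27. Many of the 294 values could hardly move. Every member probe passed the filter on dim probes, and keeping brighter genes only dropped members. Other scaling points and the deposited table shifted all members alike, by 0.05 at most. The mean of probes could change only the 12 members with a pair. The sterol sensing median was -0.13 with normexp and -0.088 with the mean of probes. The synthesis minus LXR and efflux median ranged from -1.08 to -0.96. Keeping only genes brighter than the median left fewer members. Their median was -0.12, with -0.35 for late synthesis and -0.062 for sterol sensing. The median of uptake, transport and storage changed sign under this filter, from -0.31 to 0.015. The early minus late median was -0.056, and 3 members were at least 1.5-fold lower. At 2-fold, 1 member was lower and 0 were higher, where 280 and 432 of the 19393 measured genes were. Scaling to the median, which lowers every difference by 0.05, left 0 members at least 1.5-fold higher and 9 lower, and normexp left 1 higher and 4 lower, with Soat1, Lss and Nsdhl short of that size and Msmo1 past it. The shares of all measured genes under these settings were not counted. Leaving out the X-linked Nsdhl and Ebp, chosen after seeing the data, kept every median and count within these limits. No paired analysis was possible because each group was 1 array. The slide could not be used as a block, since it held both arrays.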
